A study of Mus musculus with 24 samples.

Results

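The CC chemokines that draw monocytes and eosinophils were examined in mouse lung as a set of 10 genes, Ccl2, Ccl3, Ccl4, Ccl5, Ccl6, Ccl7, Ccl9, Ccl11, Ccl17 and Ccl22. The members are the probe sets of the deposited value table whose single annotated gene symbol is one of these names, which gave 12 probe sets for the 10 genes out of 22626 probe sets other than controls, on an array that names 12393 genes. Ccl6 and Ccl9 each had 2 probe sets, and every other gene had 1. Whole-lung RNA was measured on 24 Affymetrix arrays in 6 groups of 4. Mice breathed diesel exhaust (DE) at 500 or 2000 ug/m3, or filtered air, for 4 h a day over 5 days, and at each exposure received either ovalbumin (OVA), 100 ug, or saline, for 3 days. The groups are called DE2000 OVA, DE500 OVA and air OVA, and DE2000 saline, DE500 saline and air saline. Nothing in the labels says whether a replicate is 1 animal or a pool, so the p-values measure the spread between these samples, which may be partly technical, and 4 arrays a group limit the precision. Strain, age, sex, the route of the ovalbumin, any prior sensitisation to it and the hours between the last exposure and sampling are not given in the sources used here.

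CC chemokines are small secreted proteins that guide leukocytes along a gradient by binding G protein-coupled receptors of the Ccr family. Several ligands share a receptor: Ccl2 and Ccl7 act on Ccr2 of monocytes, Ccl3, Ccl5, Ccl6 and Ccl9 on Ccr1, Ccl5 and Ccl11 on Ccr3 of eosinophils, and Ccl17 and Ccl22 on Ccr4 of type 2 helper T cells. Ccl6 and Ccl9 are rodent chemokines made largely by macrophages and other myeloid cells, and allergen challenge of sensitised mouse lung is a setting in which Ccl11, Ccl17, Ccl22 and Ccl6 are commonly studied.

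In these lungs, 5 of the 10 genes (Ccl4, Ccl5, Ccl6, Ccl9 and Ccl17) gave signal above the 40th percentile of all probe sets, and the other 5 (Ccl2, Ccl3, Ccl7, Ccl11 and Ccl22) stayed near background. Both Ccl6 probe sets and both Ccl9 probe sets were higher in OVA lungs than in saline lungs when averaged over the 3 exposures. The dimmer Ccl9 probe set passed the 40th percentile only through its OVA arrays. When a measure of RNA integrity that differed between the arms, the 3′/5′ control ratio, was put in the fit, both Ccl6 probe sets still passed and neither Ccl9 probe set did. With another control signal that differed between the arms, that of the B1 repeat, 1 Ccl6 probe set passed, and with both in the fit none did. No member passed the test for diesel exhaust at either concentration in either arm.

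Ccl6 and Ccl9 lie next to each other on chromosome 11 with 0 protein-coding genes between them in the RefSeq annotation (GRCm38.p6). The order along this stretch is Ccl2, Ccl7, Ccl11, Ccl12, Ccl8, Ccl1, then after 25 other protein-coding genes Ccl5, Ccl9, Ccl6, Ccl3 and Ccl4, while Ccl22 and Ccl17 lie on chromosome 8 with 1 gene between them. RefSeq promoter windows, which run from 250 bases before to 50 bases after the annotated start, were matched for 5 of the 10 members, Ccl3, Ccl6, Ccl9, Ccl17 and Ccl22. The windows of Ccl6 (chr11:83593038-83593337, minus strand) and Ccl9 (chr11:83578587-83578886, minus strand) are printed here 5′ to 3′ on the gene's strand because these 2 neighbours hold the 4 probe sets called for OVA without a covariate, and capitals mark the stretch over which the 2 windows align best.
Ccl6: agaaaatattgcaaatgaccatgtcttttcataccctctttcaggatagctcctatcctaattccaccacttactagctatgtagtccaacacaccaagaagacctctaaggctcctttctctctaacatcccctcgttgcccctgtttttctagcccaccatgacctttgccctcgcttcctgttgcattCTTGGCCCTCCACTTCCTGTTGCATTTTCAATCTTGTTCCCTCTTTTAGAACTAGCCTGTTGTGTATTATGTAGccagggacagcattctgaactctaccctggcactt
Ccl9: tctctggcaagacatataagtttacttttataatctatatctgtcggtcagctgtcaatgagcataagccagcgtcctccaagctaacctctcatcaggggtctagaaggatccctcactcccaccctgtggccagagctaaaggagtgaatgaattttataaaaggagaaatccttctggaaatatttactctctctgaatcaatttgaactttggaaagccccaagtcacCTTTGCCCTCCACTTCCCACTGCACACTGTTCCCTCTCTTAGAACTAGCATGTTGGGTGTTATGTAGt
The best local alignment of the Ccl6 and Ccl9 windows covered 67 aligned bases, of which 59 (88.1%) were identical, from -59 to 14 around the Ccl6 start and from -18 to 48 around the Ccl9 start. Ccl6 bases that lie opposite gaps are left out of these counts, so the capitals of Ccl6 run longer than the aligned bases. The other pairs among the 5 windows aligned over 10 to 18 bases. So the 2 genes share sequence around their annotated starts, at positions shifted against each other.

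A set of 5 motifs was searched on both strands of all 32851 windows. TTCNNNNGAA, the palindrome bound by Stat6, was in 6.95% of all windows and among the 5 members only in that of Ccl17 (-154 to -145). TTCNNNGAA, the form with the shorter gap, was in 8.3% of all windows and again only in that of Ccl17 (-99 to -91). The kappaB motif of the NF-kappaB family was in 6.93% of all windows and in that of Ccl9 (-35 to -26). GAGGAA, a core sequence of the myeloid factor Spi1, was in 28.3% of all windows and in those of Ccl3 (-33 to -28) and Ccl17 (-248 to -243). TATAAA was in 13.6% of all windows and in that of Ccl9, with matches at -224 to -219, -94 to -89 and -92 to -87, the last 2 overlapping. The Ccl6 and Ccl22 windows held none of the 5 motifs. A match is a description of these letters and not a binding site, and a window without one says only that these letters are not in it.

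The values are MAS5 signals on a linear scale, and the mean of each array without its outermost 2% at either end lay between 500.1 and 500.2, so the arrays were on a common scale as deposited. The array medians were 181.8 to 242.7. A probe set was tested where its mean log2 signal over the 24 arrays was above the 40th percentile, a signal of 138, which left 13575 probe sets and 8315 genes. All 6 lung epithelium genes listed as a check of the tissue were above it, with the surfactant gene Sftpc and the club cell gene Scgb1a1 at percentile 100. The 3′/5′ ratio, that is the signal of 3′ over 5′ control probe sets averaged over Gapdh and actin, measures RNA integrity and labelling. It differed between the arms, with a mean log2 ratio of 0.21 (-0.13 to 2.02) in OVA arrays and 1.84 (0.10 to 4.38) in saline arrays. The log2 signal of the control probe set for the B1 repeat also differed, at 11.55 (10.85 to 12.43) in OVA arrays and 12.98 (12.08 to 13.83) in saline arrays. Array 4 of DE2000 OVA, with a log2 ratio of 2.02, and arrays 1 and 4 of DE500 saline, with 4.38 and 3.77, stood apart from the others of their group. Arrays 2 and 3 of DE500 saline had 0.33 and 0.10, against 0.98 to 2.90 in air saline and 1.30 to 2.04 in DE2000 saline. That group was thus split into 2 pairs, and setting arrays 1 and 4 aside was a choice. Results that rest on these arrays are given with and without them.

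Among the tested members, the Ccl6 probe set 1417266_at lay at percentile 96.5 of all probe sets, with signals of 2184 to 4547 over the 24 arrays. The second Ccl6 probe set, 1420249_s_at, lay at percentile 84.8 (518 to 1791). Its suffix marks probes that may match more than 1 transcript, although its annotation names only Ccl6. For Ccl9, 1417936_at lay at percentile 76.2 (423 to 859) and 1448898_at at percentile 43.7 (19.5 to 394), so the 2 probe sets of 1 gene behaved differently: the dimmer one varied 20.2-fold between arrays and the brighter one 2.03-fold. Ccl5 was at percentile 73.7 (362 to 788), Ccl4 at percentile 61.4 (244 to 463) and Ccl17 at percentile 44.3 (93.0 to 250.5), and Ccl17 exceeded the limit on 18 of 24 arrays. Near background, Ccl2 was at percentile 26.2 (12.3 to 149.9), Ccl22 at percentile 19.3 (17.7 to 104), Ccl11 at percentile 17.8 (5.44 to 115), Ccl7 at percentile 16.8 (10.9 to 96.7) and Ccl3 at percentile 3.0 (3.58 to 19.5). Of these 5, Ccl2 exceeded the limit on 2 arrays and the others on 0. Signals of different probe sets depend on their probes, so they are not compared as amounts of the transcripts. Both Ccr2 ligands of the set, Ccl2 and Ccl7, and the eosinophil chemokine Ccl11 were thus among the genes near background.

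**Figure D1:**
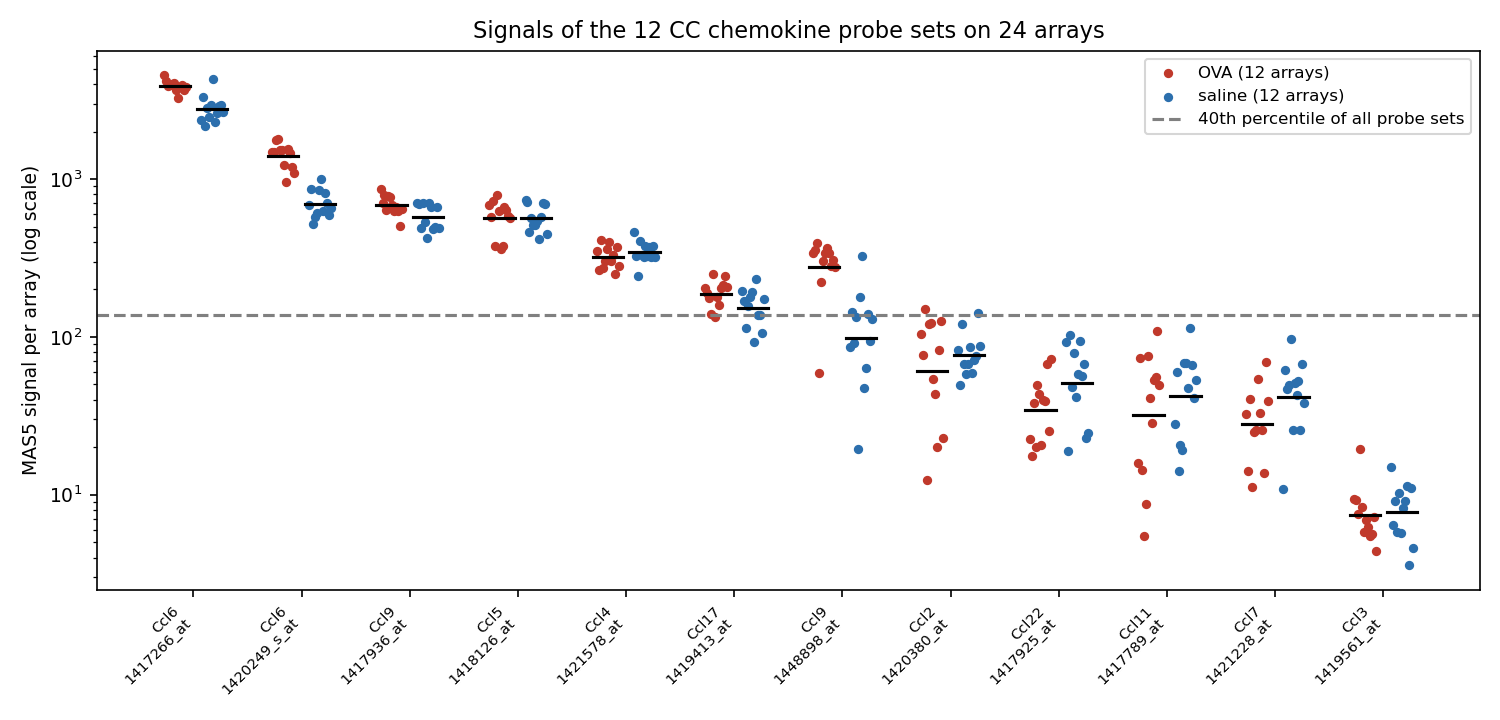
MAS5 signal (log axis) of each of the 12 member probe sets on the 24 arrays, with 12 OVA arrays in red left of 12 saline arrays in blue, a bar at each arm's geometric mean and the 40th percentile of all probe sets as a dashed line. The 5 rightmost probe sets (Ccl2, Ccl22, Ccl11, Ccl7 and Ccl3) lie below the line on nearly all arrays, and Ccl6 (1420249_s_at) shows arms that overlap only where the lowest OVA array (956) lies under the highest saline array (1003).

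The first comparison asks what OVA did to the lung within each exposure and over all 3. The Ccr1 ligand Ccl6 gave the clearest separation. In air, its probe set 1417266_at had signals of 3841, 3936, 3673 and 3850.0 in OVA lungs, against 2626, 2921, 2942 and 2652 in saline lungs. At DE500 the signals were 4028, 4049, 3648 and 3274 in OVA lungs, against 2473, 2940.4, 4284 and 2293 in saline lungs. At DE2000 they were 4547, 4176, 3870.2 and 3927 in OVA lungs, against 2365, 3296, 2184 and 2803 in saline lungs. All OVA arrays were above all saline arrays in air and at DE2000, while at DE500 array 3 of the saline group was above every OVA array of that exposure. The group means were 3825 ± 110.1 in air OVA and 2785 ± 169 in air saline, 3749.8 ± 367 in DE500 OVA and 2998 ± 899.7 in DE500 saline, and 4129.8 ± 308 in DE2000 OVA and 2662 ± 496 in DE2000 saline (SD, n = 4 each).

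Averaged over the exposures, Ccl6 (1417266_at) was 0.49 ± 0.09 log2 higher with OVA (SE, a 1.40-fold difference, 95% interval 0.31 to 0.67, adjusted p = 0.000119, limma across all tested probe sets). In whole-lung RNA, a change in the number of cells that express a gene and a change in the RNA per cell cannot be told apart. Within single exposures the difference was 0.46 ± 0.15 in air (adjusted p = 0.0428, limma), 0.36 ± 0.15 at DE500 (adjusted p = 0.104) and 0.65 ± 0.15 at DE2000 (adjusted p = 0.00489). The call in air was lost when any 1 of the 8 arrays was left out (adjusted p of 0.0533 to 0.100).

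The second Ccl6 probe set, 1420249_s_at, gave the same order with a larger difference. Its signals in air were 1551, 1469.9, 1187 and 1097 in OVA lungs, against 810.5, 705, 588 and 651 in saline lungs. At DE500 they were 1518, 1533, 1234 and 956 in OVA lungs, against 612, 851, 1003 and 629.6 in saline lungs. At DE2000 they were 1484, 1491, 1773 and 1791 in OVA lungs, against 685, 859, 518 and 578 in saline lungs. The groups did not overlap in air and at DE2000, and at DE500 they overlapped by 1 array of each group. Averaged over the exposures, Ccl6 on this probe set was 1.01 ± 0.11 log2 higher with OVA (SE, 2.02-fold, 95% interval 0.79 to 1.24, adjusted p = 3.70e-07, limma). The difference was 0.94 ± 0.19 in air (adjusted p = 0.00543), 0.77 ± 0.19 at DE500 (adjusted p = 0.0136) and 1.33 ± 0.19 at DE2000 (adjusted p = 5.71e-05). Leaving out array 1 or 4 of DE500 saline ended the call at DE500 (adjusted p up to 0.0718).

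Ccl9, a macrophage and dendritic cell product that acts on Ccr1, differed less on its brighter probe set. The signals of 1417936_at in air were 668, 624, 501 and 649.6 in OVA lungs, against 479, 499, 665 and 489 in saline lungs. At DE500 they were 782, 773, 682 and 623 in OVA lungs, against 535, 423, 703 and 669 in saline lungs. At DE2000 they were 859, 705, 794 and 634 in OVA lungs, against 708, 690.1, 492 and 706 in saline lungs. The groups overlapped at every exposure, and in air the highest saline array was above the OVA mean. Averaged over the exposures, Ccl9 on 1417936_at was 0.24 ± 0.10 log2 higher with OVA (SE, 1.18-fold, 95% interval 0.04 to 0.44, adjusted p = 0.0418, limma). No single exposure passed the test (0.20 in air, 0.32 at DE500 and 0.21 at DE2000, adjusted p of 0.416, 0.190 and 0.403). The averaged call was lost in 20 of 38 alternatives, 13 of them the removal of 1 array.

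The dimmer Ccl9 probe set, 1448898_at, had signals in air of 340.0, 282, 309 and 279 in OVA lungs, against 63.3, 140.4, 94.2 and 129 in saline lungs. At DE500 they were 222, 302, 338 and 366 in OVA lungs, against 19.5, 178, 324 and 47.5 in saline lungs. At DE2000 they were 339, 356, 394 and 58.9 in OVA lungs, against 86.6, 144, 90.9 and 133 in saline lungs. The groups were apart in air, and at DE500 and DE2000 they overlapped through array 3 of DE500 saline and array 4 of DE2000 OVA. Averaged over the exposures, Ccl9 on this probe set was 1.48 ± 0.36 log2 higher with OVA (SE, 2.79-fold, 95% interval 0.73 to 2.23, adjusted p = 0.00198, limma). Its geometric mean signal was 98.9 in saline lungs, below the limit of 138, and 276 in OVA lungs. It exceeded the limit on 15 of 24 arrays and was tested only because of its OVA signals, so this call is no independent support. The single exposures did not pass (1.57 ± 0.62 in air, 1.82 ± 0.62 at DE500 and 1.05 ± 0.62 at DE2000, adjusted p of 0.0848, 0.0545 and 0.249). Without array 4 of DE2000 OVA the difference at DE2000 was 1.71 and passed (adjusted p = 0.0322).

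**Figure D2:**
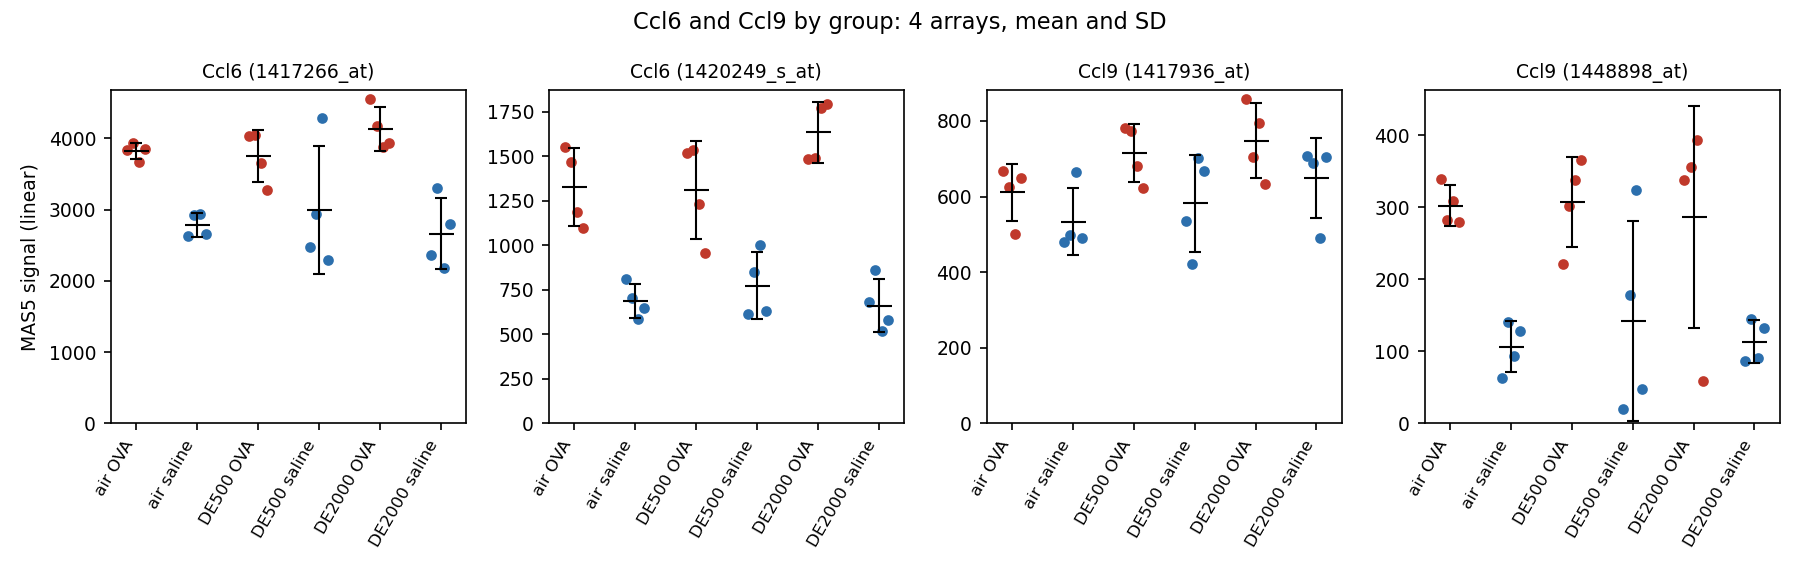
MAS5 signal (linear axis from 0) of the 2 Ccl6 and 2 Ccl9 probe sets in the 6 groups, OVA in red left of saline in blue at each exposure, with 1 point per array and bars for the mean and SD of 4 arrays. The Ccl6 means are higher in OVA lungs at every exposure, and at DE500 the arrays of the 2 arms overlap on both Ccl6 probe sets. The DE500 saline group is the most spread on 1417266_at, and on Ccl9 1448898_at array 4 of DE2000 OVA lies at 58.9 while the other 3 lie between 339 and 394.

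The relation of these values to the 3′/5′ ratio differed between probe sets and arms, and of the 8 relations only that of Ccl9 1448898_at in saline lungs passed. Among the 12 OVA arrays, the log2 signal of Ccl9 1448898_at and the log2 ratio had a Pearson r of -0.939 (permutation p = 0.0512, adjusted over 8 relations 0.147) and a Spearman rho of -0.084, and without the 2 farthest arrays r was 0.356, so that relation rested on array 4 of DE2000 OVA. Among the 12 saline arrays, the signal was lower where the ratio was higher, with Pearson's r of -0.904 (permutation p = 6e-05, adjusted 0.00048) and Spearman's rho of -0.832 (permutation p = 0.00133, adjusted 0.0106), and r was -0.751 without the 2 farthest arrays. For Ccl6 in saline lungs, r was -0.546 on 1417266_at and -0.533 on 1420249_s_at (permutation p, adjusted, 0.147 for each), and neither relation passed. In OVA lungs r was -0.001 and 0.401. Over all 24 arrays, which include the difference between the arms, these Ccl6 probe sets had r of -0.73 and -0.66 with the ratio. With the log2 B1 signal r was -0.85 and -0.84, against -0.86 for Ccl9 1448898_at. For Ccl9 1417936_at in saline lungs r was 0.230, of the opposite sign to the other Ccl9 probe set.

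**Figure D3:**
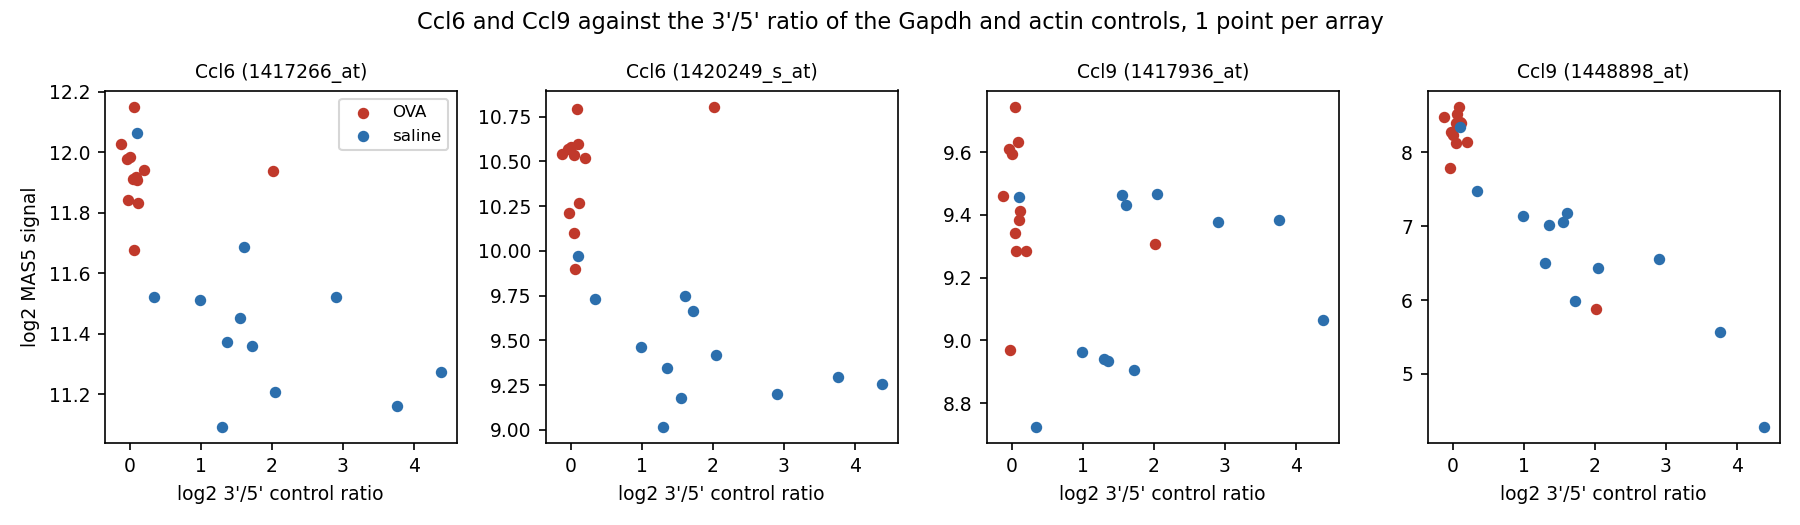
Log2 MAS5 signal of the 2 Ccl6 and 2 Ccl9 probe sets against the log2 3′/5′ ratio averaged over the actin and Gapdh controls, 1 point per array, OVA in red and saline in blue. Most OVA arrays lie near a ratio of 0 and the saline arrays spread up to 4.38, and on Ccl9 1448898_at the saline signal falls along that spread (r = -0.904).

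With the 3′/5′ ratio added to the fit, the averaged OVA difference was 0.31 for Ccl6 1417266_at (adjusted p = 0.0350, limma) and 0.85 for 1420249_s_at (adjusted p = 0.000121). Ccl9 did not pass with this covariate, at 0.29 for 1417936_at (adjusted p = 0.132) and 0.16 for 1448898_at (adjusted p = 0.712). With the B1 signal as the covariate, 1 of the 4 probe sets passed, Ccl6 1420249_s_at at 0.75 (adjusted p = 0.0250), and Ccl9 1448898_at turned to -0.75 (adjusted p = 0.278). In that fit Ccl9 1448898_at at DE2000 alone was called lower with OVA (-1.71, adjusted p = 0.0425). With both covariates Ccl6 1417266_at was 0.27 (adjusted p = 0.493), 1420249_s_at 0.87 (adjusted p = 0.0581) and Ccl9 0.05 on 1417936_at (adjusted p = 0.943) and -0.04 on 1448898_at (adjusted p = 0.974). The direction of Ccl6 was the same in all 4 fits, while the call of 1417266_at (0.17 with the B1 signal, adjusted p = 0.535) held only with no covariate or the 3′/5′ ratio. Since the ratio and the B1 signal differ between the arms, they and OVA cannot be fully told apart in this design. Leaving out the 3 arrays that stood apart in the ratio gave 0.40 for Ccl6 1417266_at (adjusted p = 0.000349), 0.90 for 1420249_s_at (adjusted p = 1.11e-06), 0.29 for Ccl9 1417936_at (adjusted p = 0.0285) and 1.20 for 1448898_at (adjusted p = 3.57e-06). At DE500 alone the differences were then 0.07 for Ccl6 1417266_at (adjusted p = 0.919) and 0.48 for 1420249_s_at (adjusted p = 0.360), and 0.33 for Ccl9 1448898_at (adjusted p = 0.751), so the OVA differences of these probe sets at that exposure rested on 2 of its 4 saline arrays. This does not cover Ccl9 1417936_at, whose remaining DE500 saline arrays had signals of 423 and 703, against 623 to 782 in DE500 OVA.

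**Figure D4:**
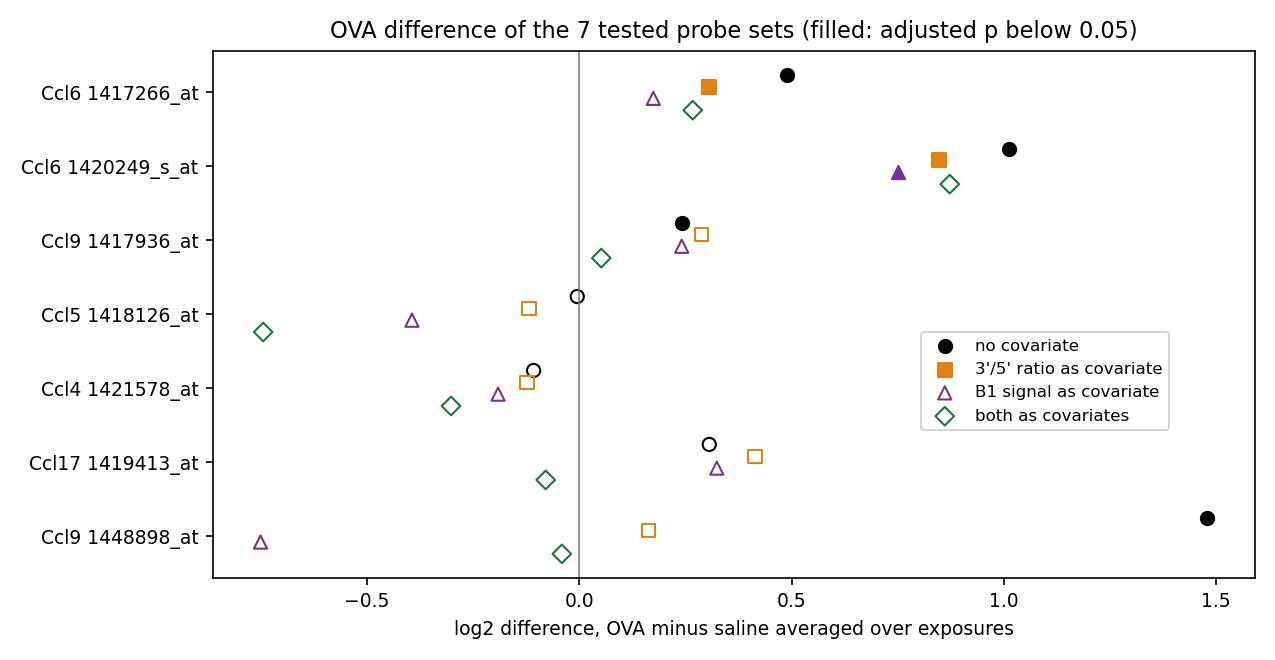
OVA minus saline log2 difference averaged over the 3 exposures for the 7 tested probe sets, in a fit with no covariate and with the 3′/5′ ratio, the B1 signal or both as covariates, where filled points have an adjusted p below 0.05. Both Ccl6 probe sets lie above 0 in all 4 fits, and Ccl9 1448898_at lies at 1.48 without a covariate and at -0.75 with the B1 signal.

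Ccl17, the Ccr4 ligand of dendritic cells and macrophages that draws type 2 helper T cells, had signals in air of 204, 212, 242 and 206 in OVA lungs, against 137, 138, 106 and 173 in saline lungs. These groups did not overlap. At DE500 the signals were 250.5, 133, 178 and 159.6 in OVA lungs, against 179, 191, 93.0 and 233 in saline lungs, and at DE2000 205, 190.2, 176 and 139 in OVA lungs, against 196, 169, 114 and 156 in saline lungs. Both exhaust exposures gave overlapping groups. The OVA difference of Ccl17 was 0.66 ± 0.25 log2 in air (SE, adjusted p = 0.0758, limma) and 0.31 ± 0.15 averaged over the exposures (adjusted p = 0.0883), so it did not pass. It passed without the 3 arrays apart in the 3′/5′ ratio (0.45, adjusted p = 0.0214) and without array 4 of DE500 saline alone (adjusted p = 0.0476). Interactions of exhaust with OVA for Ccl17 were -0.57 ± 0.36 at DE500 and -0.49 ± 0.36 at DE2000 (adjusted p of 0.9996 and 0.918), so a different OVA response between exposures was not shown.

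Ccl5, made by T cells, NK cells and epithelium and read by receptors that include Ccr1 and Ccr3, had signals of 362 to 788 with a median of 604 in the 12 OVA arrays, against 418 to 733 with a median of 554 in the 12 saline arrays. Its groups overlapped throughout, and the averaged difference was -0.00 ± 0.13 log2 (95% interval -0.29 to 0.28, adjusted p = 0.980, limma). Ccl4, a product of activated macrophages, T cells and NK cells, had signals of 251.0 to 410.2 with a median of 315 in OVA arrays, against 244 to 463 with a median of 328 in saline arrays. Its averaged difference was -0.11 ± 0.11 (95% interval -0.33 to 0.11, adjusted p = 0.426). Differences of Ccl5 and Ccl4 inside these 95% intervals remain compatible with the data.

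In counts, 4 of the 7 tested member probe sets were called higher with OVA averaged over the exposures, where 46.3% of all tested probe sets were called and 22.7% were called higher. The median difference of the 7 was 0.31, against -0.01 over all tested probe sets. In air 2 of 7 were called higher, both of Ccl6, where 14.8% of all were called and 7.62% higher, and 4 of 7 did not overlap and were higher, where 15.3% of all did so. At DE500 1 of 7 was called, where 12.5% of all were called and 5.83% higher. At DE2000 2 of 7 were called, again both of Ccl6, where 18.1% of all were called and 7.68% higher, and these 2 of 7 did not overlap, where 7.81% of all lay higher without overlap. By gene, 2 of the 5 tested were higher in the average. With so large a share of the array called in the OVA comparison, the members' count alone sets them little apart, and with the 3′/5′ ratio in the fit 14.1% of all tested probe sets were called.

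The 5 genes near background gave no call for OVA. Ccl2, the main Ccr2 ligand, had 20.1, 82.9, 125 and 22.9 in air OVA lungs, against 71.2, 75.2, 142 and 87.5 in air saline lungs. Ccl11, the eosinophil chemokine eotaxin, had 53.0, 55.3, 109 and 49.2 in air OVA lungs, against 115, 66.7, 40.8 and 53.6 in air saline lungs. Ccl22, the partner of Ccl17 at Ccr4, had 39.4, 66.9, 25.4 and 72.1 in air OVA lungs, against 56.3, 67.4, 22.8 and 24.8 in air saline lungs. All 3 pairs of groups overlapped, and 1 of these 24 values, a Ccl2 array of air saline, was above the limit. In an unfiltered fit, the unadjusted p of the averaged OVA difference was 0.0620 for Ccl22 and 0.0998 for Ccl7, and for Ccl22 at DE2000 it was 0.0281. There the signals of Ccl22 were 22.5, 17.7, 38.0 and 20.2 in OVA lungs, against 92.5, 18.8, 104 and 48.0 in saline lungs, which overlapped. Ccl7, the other Ccr2 ligand, ranged over 10.9 to 96.7 and Ccl3, a Ccr1 ligand, over 3.58 to 19.5 in all arrays, below the limit everywhere.

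The second comparison asks what exhaust did within each arm. For Ccl6 1417266_at in OVA lungs, the group means in order of exposure were 3825 ± 110.1 in air, 3749.8 ± 367 at DE500 and 4129.8 ± 308 at DE2000 (SD, n = 4), and in saline lungs they were 2785 ± 169, 2998 ± 899.7 and 2662 ± 496. The difference of DE2000 OVA from air OVA was 0.11 ± 0.15 log2 (95% interval -0.21 to 0.42, adjusted p = 0.849, limma). For 1420249_s_at the OVA means were 1326 ± 218, 1310.3 ± 274 and 1635 ± 170.2 and the saline means 689 ± 94.3, 774 ± 187 and 660.1 ± 149. Its DE2000 difference was 0.31 ± 0.19 in OVA lungs (95% interval -0.08 to 0.70, adjusted p = 0.669) and -0.08 in saline lungs. The interaction of the 2 treatments for Ccl6 was 0.39 ± 0.26 on this probe set (95% interval -0.16 to 0.94, adjusted p = 0.917) and 0.19 ± 0.21 on 1417266_at (adjusted p = 0.955), so exhaust was not shown to alter the OVA difference.

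Ccl9 had the lowest unadjusted p for exhaust among the 7 tested probe sets, in the DE2000 average. On 1417936_at the OVA means were 611 ± 75.2 in air, 715 ± 76.0 at DE500 and 748 ± 98.9 at DE2000, and the saline means were 533 ± 88.4, 582 ± 129 and 649 ± 105 (SD, n = 4 each). DE2000 minus air was 0.29 ± 0.17 log2 in OVA lungs (adjusted p = 0.663, limma) and 0.28 ± 0.17 in saline lungs (adjusted p = 0.958). Averaged over the arms it was 0.29 ± 0.12 (95% interval 0.04 to 0.53), with an unadjusted p of 0.0232 and an adjusted p of 0.614. The order of the means was the same in both arms, and the groups overlapped in each. On 1448898_at the DE2000 difference was -0.39 ± 0.62 in OVA lungs and 0.12 in saline lungs, so the other Ccl9 probe set did not repeat the order. At DE500, Ccl9 1417936_at differed by 0.23 in OVA lungs and 0.11 in saline lungs. On 1448898_at the DE500 difference in saline lungs was -0.25, and it was 1.24 and passed (adjusted p = 0.0158, limma) when the 3 arrays apart in the 3′/5′ ratio were left out, which leaves 2 DE500 saline arrays, with signals of 178 and 324.

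Among the remaining tested members, Ccl17 differed from air by -0.30 ± 0.25 log2 at DE2000 in OVA lungs and by 0.19 in saline lungs, Ccl5 by -0.10 and 0.03, and Ccl4 by 0.07 and 0.01. At DE500 Ccl5 was -0.27 log2 in each arm, and its adjusted p was 0.9998 in OVA lungs and 0.872 in saline lungs (limma). No member was called for DE2000 minus air (0 of 7 in OVA lungs, where 0.0221% of all tested probe sets were called, and 0 of 7 in saline lungs, where 0.147% were). None was called for DE500 minus air either (0 of 7, where 0% were called in OVA lungs and 0.00737% in saline lungs). Averages over the arms called 0 of 7 as well, where 0.0884% of all were called at DE2000 and 0% at DE500, and both interactions called 0 of 7, where 0% of all were. At an unadjusted p below 0.05 limma gave 0 of 7 members in each of the 4 within-arm comparisons. Of all tested probe sets, 8.13% reached it at DE2000 and 0.921% at DE500 in OVA lungs, and 5.94% and 7.9% in saline lungs. In the DE2000 average it gave 1 of 7 (Ccl9 1417936_at), where 7.52% of all probe sets reached it.

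**Figure D5:**
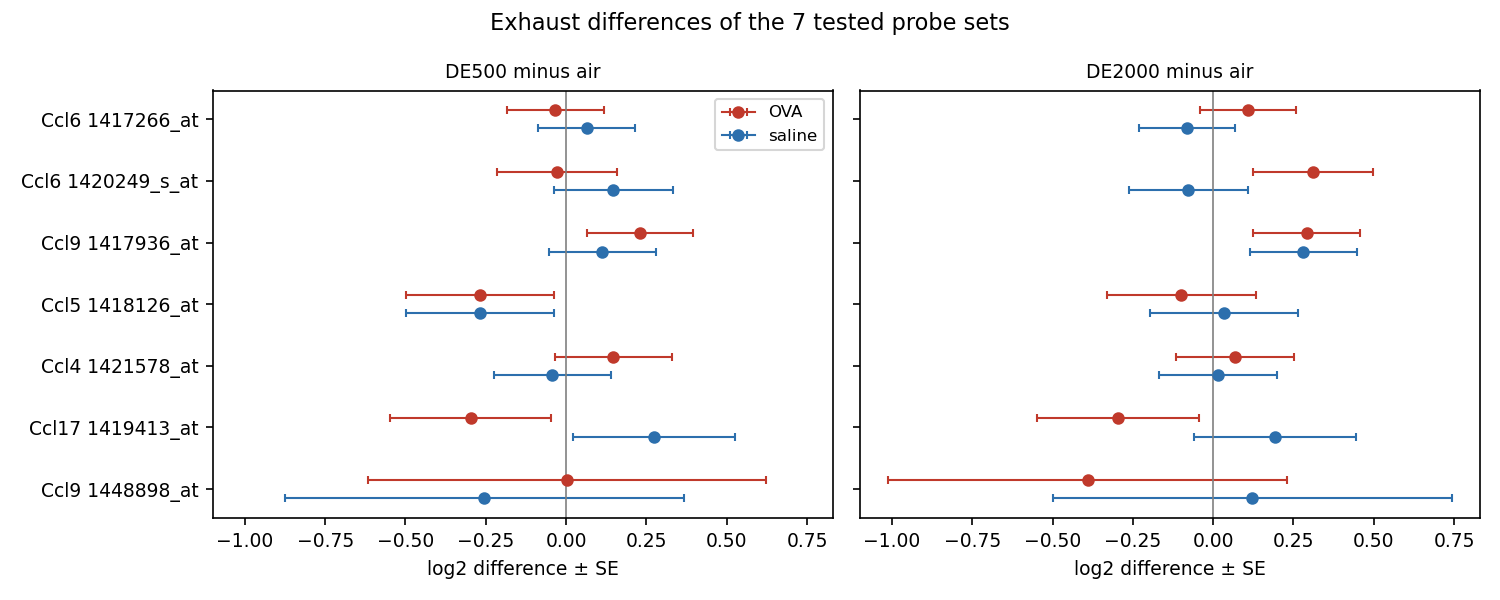
Log2 difference from air (± SE) of the 7 tested member probe sets at DE500 (left) and DE2000 (right), in OVA lungs (red) and saline lungs (blue, below). Ccl9 1417936_at is above 0 in both arms at both concentrations, Ccl5 lies at -0.27 in both arms at DE500, Ccl17 has opposite signs in the 2 arms, and no difference was called.

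Of the genes near background, Ccl11 had the lowest unadjusted p for exhaust. Its signals in OVA lungs were 53.0, 55.3, 109 and 49.2 in air, 8.77, 76.1, 40.9 and 28.4 at DE500 and 15.97, 74.0, 14.3 and 5.44 at DE2000. In saline lungs they were 115, 66.7, 40.8 and 53.6 in air, 19.2, 68.3, 67.9 and 47.7 at DE500 and 28.0, 60.3, 14.2 and 20.5 at DE2000. The arrays at DE2000 overlapped those in air in both arms, and every Ccl11 value was below the limit of 138. In the unfiltered fit the DE2000 average had an unadjusted p of 0.00386 and an adjusted p of 0.471 (limma), so it was not a call. Ccl3 did not overlap between DE2000 OVA, with 9.41, 9.22, 7.60 and 19.5, and air OVA, with 5.51, 5.66, 7.26 and 4.42, where 2.28% of tested probe sets lay higher without overlap. Its unadjusted p there was 0.0527 in the unfiltered fit, and no value of Ccl3 came near the limit.

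The groups with both treatments and with neither were also set against each other. For DE2000 OVA minus air saline, Ccl6 differed by 0.57 ± 0.15 log2 on 1417266_at (adjusted p = 0.0176, limma) and by 1.25 ± 0.19 on 1420249_s_at (adjusted p = 0.000257). Ccl9 differed by 0.49 ± 0.17 on 1417936_at (adjusted p = 0.0560) and 1.17 on 1448898_at (adjusted p = 0.225). Thus 2 of 7 member probe sets were called higher, where 11.4% of all tested probe sets were called and 4.18% higher, and these differences contain the OVA difference given before because they share its arrays. The first Ccl6 call was lost without array 1 of DE2000 OVA (adjusted p = 0.0521).

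The receptors of these chemokines were mostly near background too. Of 13 CC receptors on the array, 5 were tested, and Ccr1, Ccr3 and Ccr4, which read most of the members, were below the limit. Averaged over the exposures, 2 of the 5 tested were higher with OVA and 1 was lower, where 22.7% of all tested probe sets were called higher and 23.6% lower. Ccrl2, an atypical receptor that binds chemerin, had signals in air of 635, 592, 629 and 692 in OVA lungs, against 201, 368, 229 and 387 in saline lungs, and over all exposures its lowest OVA array (578) was above its highest saline array (538). Its difference was 0.98 ± 0.13 log2 (SE, adjusted p = 4.93e-06, limma). Ackr2, a decoy receptor that takes up inflammatory CC chemokines, had signals in air of 434, 429, 637 and 585 in OVA lungs, against 247, 266, 177 and 228 in saline lungs, with no overlap. Its difference was 1.07 ± 0.16 (adjusted p = 1.79e-05), and both genes passed at each exposure. At DE500, saline arrays 1 and 4, which stood apart in the 3′/5′ ratio, had the lowest signals of both genes. Ccrl2 had 221 and 287 there, against 538 and 448 in arrays 2 and 3. Ackr2 had 148 and 159, against 317 and 344. The calls at DE500 were not tested without arrays 1 and 4. Ccr6, the receptor of Ccl20, was lower (-0.28 ± 0.09, adjusted p = 0.0189), which did not pass with the 3′/5′ ratio in the fit (adjusted p = 0.0871). The monocyte receptor Ccr2 did not pass (-0.20, adjusted p = 0.310), nor did Ackr1 (0.14, adjusted p = 0.428). With the 3′/5′ ratio in the fit Ccrl2 was 0.57 (adjusted p = 0.000963) and Ackr2 0.54 (adjusted p = 0.00517), and with the B1 signal 0.30 (adjusted p = 0.347) and 0.12 (adjusted p = 0.778). With both covariates Ccrl2 was 0.58 (adjusted p = 0.132, limma) and Ackr2 0.28 (adjusted p = 0.597). No receptor passed for exhaust.

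Other genes around the pathway are given for the same average, where 46.3% of all tested probe sets were called. Their calls are therefore not particular to the pathway. Of 10 other CC ligands 8 were on the array and 1 was tested, Ccl8, at 0.17 ± 0.09 with OVA (adjusted p = 0.111, limma). Of 16 type 2 pathway genes on the array 6 were tested, and with OVA 1 was higher, the receptor chain Il13ra1 (0.48 ± 0.13, adjusted p = 0.00386), and 1 was lower, Retnla, a secreted product of alternatively activated macrophages and airway cells (-0.31 ± 0.12, adjusted p = 0.0395). The type 2 cytokines Il4, Il5 and Il13 were below the limit. Of 19 listed inflammatory inducers of chemokines 14 were tested, with the cytokine Il1a higher (0.82 ± 0.22, adjusted p = 0.00473), and the NF-kappaB subunits Rela (-0.36 ± 0.09, adjusted p = 0.00301) and Nfkb2 (-0.56 ± 0.18, adjusted p = 0.0132) lower, while Tnf, Il6 and Ifng were below the limit. All 5 of these calls were lost with the 3′/5′ ratio in the fit (adjusted p of 0.295 for Il13ra1, 0.428 for Retnla, 0.346 for Il1a, 0.137 for Rela and 0.271 for Nfkb2).

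Markers of the cells that make or follow these chemokines are given for the same contrast, in which 46.3% of all tested probe sets were called. Of the eosinophil markers 7 were on the array and 0 were tested, since Prg2, Epx, Prg3, Il5ra, Ccr3, Siglecf and Alox15 all lay below the limit, and their summed signal was 229 to 582 in OVA arrays, against 304 to 532 in saline arrays. Monocyte markers summed to 21305 to 36034 in OVA arrays, against 25117 to 31772 in saline arrays, and 1 of 6 tested, Cd14, was higher (0.26, adjusted p = 0.00839, limma). Alveolar macrophage markers summed to 10069 to 14830 in OVA arrays, against 10733 to 14061 in saline arrays. In that list 1 of 7 tested, the lysosomal Cd68, was higher (0.66, adjusted p = 0.000520), and Marco, Siglecf and Pparg were below the limit. T and NK cell markers summed to 2378 to 4416 in OVA arrays, against 2583 to 4176 in saline arrays, with Ncr1 higher (0.52, adjusted p = 0.00180) and Klrd1 lower (-0.25, adjusted p = 0.0360) among 10 tested. Dendritic cell markers summed to 1719 to 2186 in OVA arrays, against 1660 to 2275 in saline arrays, with Cd209a higher (0.55, adjusted p = 0.00910) and Fscn1 lower (-0.31, adjusted p = 0.0116) among 4 tested. Of 9 tested neutrophil markers 2 were lower, S100a9 (-0.65, adjusted p = 0.00692) and Pglyrp1 (-0.42, adjusted p = 0.0474), and of 2 tested mast cell markers 1 was higher, the protease Cpa3 (0.45, adjusted p = 0.0264). All of these marker calls (Cd14, Cd68, Ncr1, Klrd1, Cd209a, Fscn1, S100a9, Pglyrp1 and Cpa3) were lost with the 3′/5′ ratio in the fit (adjusted p of 0.0633 for Cpa3 to 0.967 for Pglyrp1). The summed levels of these lists thus overlapped between the arms. Each sum is a total of linear signals and is led by its brightest genes. Among the monocyte markers Lyz2 had a geometric mean signal of 20635, against 159 for Ccr2. Among the alveolar macrophage markers the brightest were Chil3 (3453) and Car4 (3154). Overlapping sums therefore do not show equal cell numbers, and the part of cell numbers in the Ccl6 and Ccl9 differences was not tested. For exhaust, neutrophil markers summed to 8235 to 13610 in DE2000 saline lungs, against 4540 to 6925 in air saline lungs. There 1 of 9 tested, Cd177, was called higher (2.39, adjusted p = 0.000683, limma), where 0.147% of all tested probe sets were, and all 9 lay above 0. In OVA lungs they summed to 5355 to 7086 at DE2000, against 4892 to 6843 in air, which overlap. Again 1 of 9 tested, Cd177, was called higher (1.90, adjusted p = 0.0134), where 0.0221% of all were, and 5 of 9 lay above 0. That call held in 13 of 20 alternatives and was lost with both covariates (adjusted p = 0.180, limma). The member probe sets gave no call in either comparison.

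Between members, log2 signals of the brightest probe sets of Ccl6 and Ccl9 had a Pearson r of 0.554 over the 24 arrays and 0.442 after subtraction of the group means. For Ccl5 and Ccl9 r was 0.328 and 0.515, and for Ccl5 and Ccl6 0.219 and 0.453. These values describe arrays that share group, scaling and RNA quality, and no test is attached to them.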

How the data were processed

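Per the labels' protocols, RNA came from frozen lung (Qiagen RNeasy) and 2 ug of it was turned into biotinylated cRNA. The authors deposited 1 intensity per probe set and array, computed with MAS5 per the submitters' processing notes, whose version and target setting are not given in the sources used here. From these deposited intensities log2 values were computed without a pseudocount. Of 22690 probe sets, 64 controls were set aside, and of the other 22626 the platform annotation names 1 gene for 20380, several for 691 and none for 1555. The 13575 probe sets whose mean log2 signal was above the 40th percentile were tested with the R package limma (version 3.58.1, R 4.3.3), using linear models and moderated statistics with a trend in the prior variance, on all 24 arrays with 1 mean per group, two-sided, for 13 comparisons, with Benjamini-Hochberg adjustment over the tested probe sets and a call at an adjusted p below 0.05. Probe sets below the limit have values and the p of an unfiltered fit, and no call.

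The fit was tested on simulated data with known differences. The simulated noise held no difference in RNA quality between the arms, so that test cannot speak to this limit of the data. Correlations with the 3′/5′ ratio used permutation tests with 100000 resamples within an arm. Promoter windows and gene order are RefSeq's (GRCm38.p6), searched and aligned with Biopython 1.88. The brightest probe set speaks for a gene where genes are counted or named, the listed genes named are the called ones with the smallest p, and the 3 genes most correlated with each tested member are named. The members and gene lists were chosen with earlier results of these data known, so they are no independent support. The fits without the 3 arrays apart in the 3′/5′ ratio and with both RNA covariates were added after seeing the data. Same-numbered arrays of different groups did not deviate together, so no pairing was used.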

Additional observations from a re-analysis of the deposited data

Results flagged for a closer look

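In 6 of the 72 combinations of a member probe set and a group, 1 array lay far from the other 3 by Dixon's test at its 95% limit, and chance flags about 1 in 20 groups. For Ccl9 on 1448898_at, array 4 of DE2000 OVA had a signal of 58.9, with the others at 339 to 394. That array also had the highest 3′/5′ log2 ratio of the OVA arrays (2.02). For Ccl9 on 1417936_at, array 3 of air saline had 665, with the others at 479 to 499, and array 3 of DE2000 saline had 492, with the others at 690.1 to 708. For Ccl4, array 3 of DE500 saline had 379, with the others at 319 to 328. Near background, array 1 of DE2000 saline had 10.9 for Ccl7, with the others at 46.5 to 61.2, and array 3 of air OVA had 109 for Ccl11, with the others at 49.2 to 55.3.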

How the results depend on the processing

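The number of member probe sets called for OVA averaged over the exposures (4) was 2 with the 3′/5′ ratio in the fit, 1 with the B1 signal and 0 with both, while the share of all tested probe sets called was 46.3%, 14.1%, 4.1% and 1.69% in these 4 fits. In air (2) it was 1 with median scaling, without the filter, without the trend or with the 3′/5′ ratio, 4 with array weights or only the groups compared, and 0 with B1 or both covariates. At DE500 (1) it was 2 with quantile normalization, median scaling or a replicate block, 3 with array weights, and 0 with only the groups compared, any covariate or the 3 arrays apart in the 3′/5′ ratio left out. At DE2000 (2) it was 0 with both covariates, and with B1 1 was called higher (Ccl6 1420249_s_at) and 1 lower (Ccl9 1448898_at). For DE2000 OVA minus air saline (2) it was 4 with array weights or without those 3 arrays, 1 with B1 and 0 with both. For DE500 minus air in saline lungs (0) it was 1 without those 3 arrays. Leaving out 1 array gave 1 to 1 in air (each of its 8 arrays), 0 to 3 at DE500 (each DE500 saline array), 2 to 3 at DE2000, 3 to 5 averaged and 1 to 4 for DE2000 OVA minus air saline (arrays 1 and 4 of DE2000 OVA), and 0 in all other comparisons. Directions turned for Ccl9 1448898_at with the B1 signal (-0.29 in air, -0.26 at DE500, -1.71 at DE2000 with an adjusted p of 0.0425, -0.75 averaged and -1.23 for DE2000 OVA minus air saline), with both covariates (-0.22 at DE2000, -0.041 averaged and -0.11 for DE2000 OVA minus air saline) and without the 3 arrays in DE500 minus air in saline lungs (1.24, against -0.25 with them). Among the listed genes the averaged OVA difference turned with B1 for Ager (0.0089), Cd68 (-0.055) and Pglyrp1 (0.19) and with both for Sftpb (-0.091). Of 2291 combinations of a single member probe set and an alternative, 54 lost a call, 27 gained one, and 194 had the opposite sign, of which 190 were called in neither fit, such as Ccl5 and Ccl4, whose values lie near 0.

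The pairing check gave a mean correlation of 0.0269 between arrays of the same number (-0.427 to 0.594, 60 pairs) and -0.00838 between different numbers (180 pairs). With the replicate block the Ccl9 1417936_at average lost its call (adjusted p = 0.0535, limma), which made the averaged count 3, and the count at DE500 was 2; the other counts stayed as they were. The limits are the difference in RNA integrity between the arms, 4 arrays a group, and MAS5 signals that are noisy at the level of Ccl2, Ccl3, Ccl7, Ccl11 and Ccl22, for which an absent transcript and a low one could not be told apart.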

Other observations

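The genes whose log2 signal followed each tested member most closely over the 24 arrays, among 8314 genes, are given as a description, with the correlation after subtraction of group means beside it. The arrays share arm, scaling and RNA quality. For Ccl6 they were C1galt1c1, a chaperone of O-glycosylation (r 0.917, within groups 0.752), Emc4 (0.905 and 0.791) and Hsd17b4, a peroxisomal enzyme (0.903 and 0.757). For Ccl9 they were the myeloid lectin receptor Clec4n (0.750 and 0.773), Litaf (0.732 and 0.554) and the formyl peptide receptor Fpr2 (0.719 and 0.770). For Ccl5 they were the T cell receptor chain Cd3d (0.802 and 0.777), the leukocyte actin-binding protein Coro1a (0.770 and 0.775) and Slc35b2 (0.733 and 0.731). For Ccl17 they were Tmem159 (0.691 and 0.610), Plaat3 (0.687 and 0.578) and the scavenger receptor Cd36 (0.656 and 0.562). For Ccl4 they were Raver1 (0.685 and 0.681), B3gnt5 (0.643 and 0.693) and Dclre1a (0.638 and 0.654). Taking out the group means lowered the values of all 3 genes of Ccl6 and all 3 of Ccl17, and changed those of Ccl4 and Ccl5 little.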
